A study of Mus musculus with 24 samples.

Results

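Thyroid hormone acts in cells through the nuclear receptors encoded by Thra and Thrb, which bind DNA mostly as heterodimers with a retinoid X receptor encoded by Rxra, Rxrb or Rxrg. The 9 genes described here are these 5 receptor genes, the deiodinase genes Dio2 and Dio3, and the hormone response genes Klf9 and Hr, taken by symbol from the 25135 genes listed in both expression tables. All 9 were listed at both ages. They were measured in nuclei of the Emx1 lineage, the progeny of dorsal telencephalic progenitors, sorted from mouse cortex by the nuclear tag SUN1-GFP.

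In this system the prohormone thyroxine is taken up by transporters and turned into active triiodothyronine by the type 2 deiodinase, while the type 3 enzyme inactivates both. Receptors without hormone recruit corepressors to target genes, and hormone exchanges these for coactivators. In rodents the hormone rises in the first weeks after birth and times steps of brain maturation that include dendrite growth and myelination. Retinoid X receptors also pair with receptors for retinoic acid, oxysterols, fatty acids and vitamin D.

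Each group held 6 libraries, 24 in all: WT (Kdm6b wt/wt; SUN1-GFP) and Kdm6b-cKO (Emx1-Cre; Kdm6b f/f; SUN1-GFP), each at P1 and P30, postnatal days 1 and 30. Both genotypes carried the reporter and were littermates on a C57BL/6 background. The paper used the reporter to label Emx1 progeny in both, and GFP+ nuclei were sorted from WT too. It names Emx1-Cre only for Kdm6b-cKO and does not state outright whether WT carried it. KDM6B is a histone demethylase that removes the repressive mark H3K27me3. Emx1-Cre is a knock-in that recombines in cortical progenitors, whose progeny are a mixture of glutamatergic neurons, astrocytes and some oligodendrocytes. In such a mixture, fewer cells of a type and less RNA per cell cannot be told apart. Defining markers of glutamatergic neurons were present in each group, with summed levels of 129 to 893 FPKM over 5 genes. GABAergic markers (6 genes), which this lineage should largely lack, were not alike in the genotypes. At P1 they summed to 356 to 774 FPKM in WT (median 557) and 502 to 1454 FPKM in Kdm6b-cKO (median 671). At P30 they summed to 32.6 to 381 FPKM in WT (median 83.5) and 138 to 306 FPKM in Kdm6b-cKO (median 242). The ranges overlapped at both ages, and the part of such content in the genotype differences below was not tested. Markers of types not named above were present too. Over both genotypes, endothelial and mural markers (5 genes) summed to 53.7 to 198 FPKM at P1 and 2.78 to 13.9 FPKM at P30. Those of microglia (6 genes) summed to 13.6 to 54.9 FPKM at P1. At P30 the microglia sums were 0.914 to 15.5 FPKM in WT (median 3.93) and 4.42 to 21.1 FPKM in Kdm6b-cKO (median 9.58). Opalin, a marker of mature oligodendrocytes, was at 0 in all 6 Kdm6b-cKO libraries at P1, and not in every WT library. All 6 oligodendrocyte markers together summed to only 17.4 to 29.2 FPKM in WT and 10.4 to 21.8 FPKM in Kdm6b-cKO at P1. The level that these zeros leave possible was not worked out for Opalin. The labels do not say whether the 6 libraries of a group came from separate animals, so p-values measure the spread between these libraries.

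Levels are FPKM, fragments per kilobase of transcript at a set number of mapped fragments, which the authors' software had also scaled between the libraries of each age. The tables hold no read totals. Effective depth, read from the steps of 1 read in low values with an assumed fragment length of 200 bases, was 191000 to 3886000 reads at P1 and 1932000 to 8285000 reads at P30. More than 100 olfactory receptor genes were above 0 in 5 P1 libraries, WT 2 to 5 and Kdm6b-cKO 5, against at most 21 in the other 7. Kdm6b-cKO libraries 0 and 1 at P1 held 3423 and 3239 FPKM of the 45S ribosomal RNA precursor, against at most 899 FPKM in the other P1 libraries. At least 1000 FPKM of this precursor was found at P30 in 5 libraries of WT and 3 of Kdm6b-cKO. Kdm6b itself was 37.8 ± 11.3 (WT) and 29.0 ± 9.67 FPKM (Kdm6b-cKO) at P1, and 21.6 ± 4.08 and 23.4 ± 4.36 FPKM at P30 (SD, n = 6 each). Its adjusted p in limma was 0.534 and 0.828, but a whole-gene value also counts reads outside the floxed exons. Reads on those exons were not examined here, so these values do not check the deletion, and the genotypes below are those of the library labels.

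The rank of 3 members differed between the ages without overlap in both genotypes. The share of all genes that did so was not worked out. Promoters of these 3 are shown, chosen by this separation and not by the size of the shift. They are the 250 bases before an annotated start, from RefSeq on the build GRCm38.p6, 5′ to 3′ on the plus strand, on which all 3 genes lie. Capitals mark the core receptor motif AGGTCA, searched on both strands. Thrb (chr14:17660710-17660959) is shown at the upstream start of 2, Rxrg (chr1:167618015-167618264) at the downstream start of 2, and Klf9 (chr19:23140976-23141225) at its listed start. Of the 2 windows each of Thrb and Rxrg, the one that holds the motif is shown, and the other window has 0 matches.
Thrb: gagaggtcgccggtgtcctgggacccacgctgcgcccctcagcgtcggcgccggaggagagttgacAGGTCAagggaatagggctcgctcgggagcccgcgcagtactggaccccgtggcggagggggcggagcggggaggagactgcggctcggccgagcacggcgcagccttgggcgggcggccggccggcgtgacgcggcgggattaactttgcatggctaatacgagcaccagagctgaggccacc
Klf9: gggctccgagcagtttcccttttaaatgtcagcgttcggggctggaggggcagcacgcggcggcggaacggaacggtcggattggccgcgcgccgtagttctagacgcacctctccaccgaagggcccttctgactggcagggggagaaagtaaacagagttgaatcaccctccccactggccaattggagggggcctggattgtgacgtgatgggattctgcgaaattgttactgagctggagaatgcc
Rxrg: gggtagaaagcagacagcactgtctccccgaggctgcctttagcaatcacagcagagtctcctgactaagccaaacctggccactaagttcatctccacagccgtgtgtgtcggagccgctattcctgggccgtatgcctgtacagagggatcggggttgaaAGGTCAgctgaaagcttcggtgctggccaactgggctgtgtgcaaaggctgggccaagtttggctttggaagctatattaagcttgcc
The motif lay 184 to 179 bases before the start in Thrb and 88 to 83 bases before it in Rxrg, and no match was found in the Klf9 window. RefSeq gave 11 windows for 7 of the 9 genes, and Thra and Hr had none. AGGTCA was found in 3 of these 11 windows, of Thrb, Rxra and Rxrg, and in 14.0% of all 32851 windows of the same length. The direct repeat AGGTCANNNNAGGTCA, the classical spacing of 4 bases for a thyroid hormone receptor with its partner, was in none of the 11 and in 0.0152% of all windows. A match is only a run of letters and does not show binding.

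With limma on log2(FPKM + 0.1), no member was called lower or higher in Kdm6b-cKO at either age, with an adjusted p under 0.05 and over 2-fold needed for a call. At P1 all 9 members had a mean of at least 1 FPKM and were tested. None of the 16250 genes tested was called at that age (0.0% lower and 0.0% higher), while 1263 lower and 1089 higher genes had an unadjusted p under 0.05. None of the 9 members had an unadjusted p under 0.05, against 7.77% of all genes on the lower side and 6.7% on the higher side. By the exact two-sided permutation test over the 924 splits of 12 libraries, 0 of 9 members had an unadjusted p under 0.05, against 14.6% of all genes. No member had all Kdm6b-cKO libraries below all WT libraries, against 0.683% of genes, or all above, against 0.603%.

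At P30, 7 of the 9 members were tested, since Rxrg and Dio3 missed the filter. Calls were made for 0.226% of the 13289 genes on the lower side and 0.0527% on the higher side, and for none of the 7 members. Hr had an unadjusted limma p under 0.05 on the lower side, against 7.37% of all genes, and no member did on the higher side, against 5.34%. The same gene was the 1 member of 7 with an exact permutation p under 0.05, against 13.6% of all genes. No member's libraries were free of overlap between genotypes, against 1.05% of genes lower and 0.888% higher in Kdm6b-cKO.

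**Figure D1:**
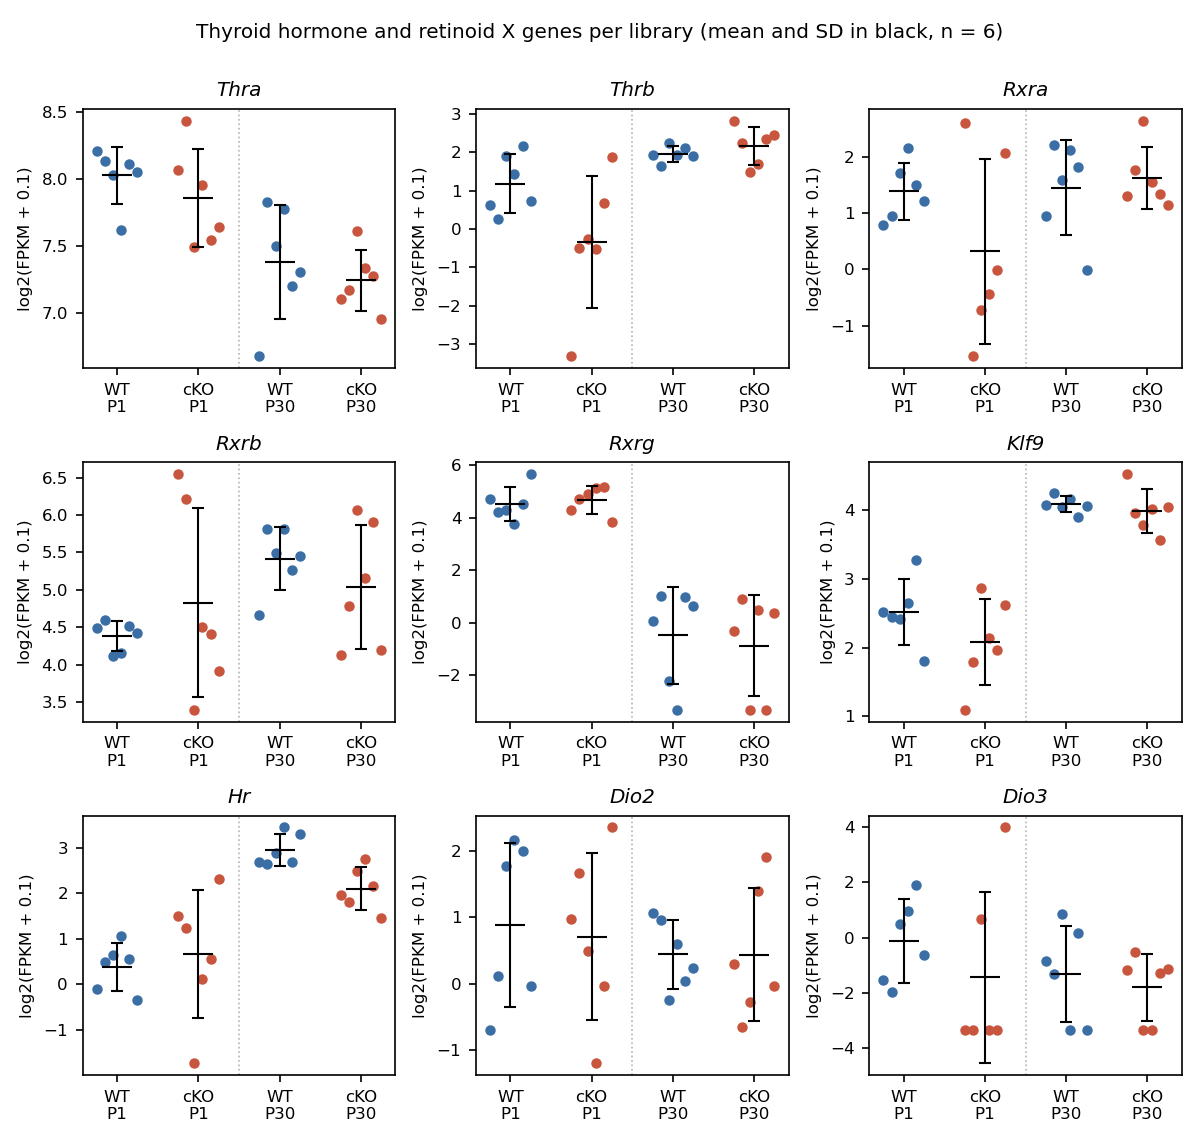
Level of each of the 9 genes as log2(FPKM + 0.1) in the 6 libraries of each group, with blue points for WT, red points for Kdm6b-cKO and black bars for the mean and SD. P1 and P30 were scaled in separate tables, so levels are compared within an age; for Hr at P30, WT spans 6.17 to 10.9 FPKM and Kdm6b-cKO 2.65 to 6.65 FPKM.

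Thra (mm9 chromosome 11, 98601952 to 98630320, plus strand) encodes the receptor that predominates in brain and, by splicing, a variant that binds no hormone. It was the most abundant member in each group. At P1 it ranged from 196 to 296 FPKM in WT (median 271) and from 180 to 346 FPKM in Kdm6b-cKO (median 223). The groups overlapped, with a log2 difference of -0.17 (SE 0.23, adjusted p = 0.735, limma). At P30 it ranged from 102 to 227 FPKM in WT (median 169) and from 124 to 196 FPKM in Kdm6b-cKO (median 149), again with overlap (log2 difference -0.14, SE 0.21, adjusted p = 0.836, limma). Thra overlaps Nr1d1 on the opposite strand, and whether counting used strand is not given in the sources used here, so reads of the pair may be mixed.

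Thrb (mm9 chromosome 14, 18493474 to 18870602, plus strand) encodes the second hormone receptor. At P1 the 6 WT libraries held 1.10 to 4.38 FPKM (median 2.09) and the 6 Kdm6b-cKO libraries 0 to 3.57 FPKM (median 0.674). Below the lowest WT library lay 4 of the 6 Kdm6b-cKO libraries, while libraries 4 and 5, at 1.502 and 3.57 FPKM, lay within the WT range. The log2 difference of -1.53 (SE 0.78) gave an adjusted p of 0.389 in limma, and the exact permutation test gave p = 0.0584 before adjustment and 0.363 after it. The values rest on few reads, 146 in all over the WT libraries and 53 over the Kdm6b-cKO libraries. The library listed at 0 is shallow: 3 reads, the most that a count of 0 leaves likely, would stand for 1.49 FPKM in it.

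Thrb at P1 also moved with the olfactory receptor signal. In WT the 4 libraries with the signal held 1.56 to 4.38 FPKM of Thrb and those without it 1.10 and 1.45 FPKM, and the highest Kdm6b-cKO library was the one that had the signal. Among the 7 libraries without it (2 WT, 5 Kdm6b-cKO), the log2 difference of Thrb was -1.22 (exact two-sided permutation p = 0.429, where 21 splits allow no p under 0.0476). Among the 5 libraries with it (4 WT, 1 Kdm6b-cKO) the difference was 0.32. Leaving out the pair of Kdm6b-cKO libraries rich in the 45S precursor gave -0.74 (adjusted p = 0.589, limma). The part of these signals in the Thrb values was not tested further.

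At P30, Thrb ranged from 3.03 to 4.62 FPKM in WT (median 3.69) and from 2.71 to 7.02 FPKM in Kdm6b-cKO (median 4.79). The groups overlapped, and 3 Kdm6b-cKO libraries lay above all WT libraries and 1 below (log2 difference 0.22, SE 0.24, adjusted p = 0.760, limma). The genotype effect on Thrb was 1.74 higher at P30 than at P1 on the log2 scale (SE 0.80), with an unadjusted p of 0.0384 and an adjusted p of 0.349 in limma over 12644 genes. For the other members in this comparison the adjusted p ran from 0.483 to 0.974. Over all genes, 1 gene (0.00791%) had an adjusted p under 0.05. The share of genes with an unadjusted p under 0.05 is not given here, so the unadjusted p of Thrb has no background beside it.

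Rxra (mm9 chromosome 2, 27531960 to 27618477, plus strand) encodes a widely expressed retinoid X receptor. At P1 it held 1.64 to 4.33 FPKM in WT (median 2.48) and 0.244 to 5.94 FPKM in Kdm6b-cKO (median 0.767). As for Thrb, 4 of the Kdm6b-cKO libraries were below the lowest WT library, but 1 lay above them all (log2 difference -1.06, SE 0.71, adjusted p = 0.505, limma). The WT libraries with the olfactory signal held 2.23 to 4.33 FPKM of Rxra, and those without it 1.64 and 1.82 FPKM. At P30 the ranges were 0.898 to 4.54 FPKM in WT (median 3.17) and 2.11 to 6.13 FPKM in Kdm6b-cKO (median 2.62), with a log2 difference of 0.17 (SE 0.39, adjusted p = 0.891, limma).

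Rxrb (mm9 chromosome 17, 34168757 to 34175338, plus strand) encodes the second retinoid X receptor and was more abundant per length than Rxra in every group. At P1 the WT libraries lay close together, from 17.3 to 24.2 FPKM (median 21.9). Kdm6b-cKO libraries spread from 10.5 to 93.4 FPKM (median 21.9). The spread came from libraries 0 and 1, at 93.4 and 73.9 FPKM, while the other 4 held 10.5 to 22.5 FPKM. These are the libraries with 3423 and 3239 FPKM of the 45S precursor. The log2 difference was 0.45 (SE 0.46, adjusted p = 0.665, limma) and turned to -0.33 (adjusted p = 0.537, limma) without them, an alternative added after the values were seen.

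Rxrb was also higher at P30 in the libraries rich in the 45S precursor, in both genotypes. In the 8 libraries with at least 1000 FPKM of the precursor, Rxrb held 38.6 to 56.2 FPKM in WT and 35.7 to 66.9 FPKM in Kdm6b-cKO. The other 4 libraries held 25.4 FPKM in the 1 WT library and 17.4 to 27.4 FPKM in Kdm6b-cKO, all below the 8. Within the 8, Rxrb did not follow the amount of the precursor. In Kdm6b-cKO it held 66.9 FPKM in library 2, at 3034 FPKM of the precursor, and 35.7 FPKM in library 3, at 15420 FPKM. Over all P30 libraries the log2 difference of Rxrb between genotypes was -0.38 (SE 0.34, adjusted p = 0.692, limma), and it was 0.14 among the 8 libraries and -0.30 among the 4 (exact two-sided permutation p = 0.643 and 1.0). The gene has 11 annotated transcripts, and reads behind its FPKM could not be recovered.

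**Figure D2:**
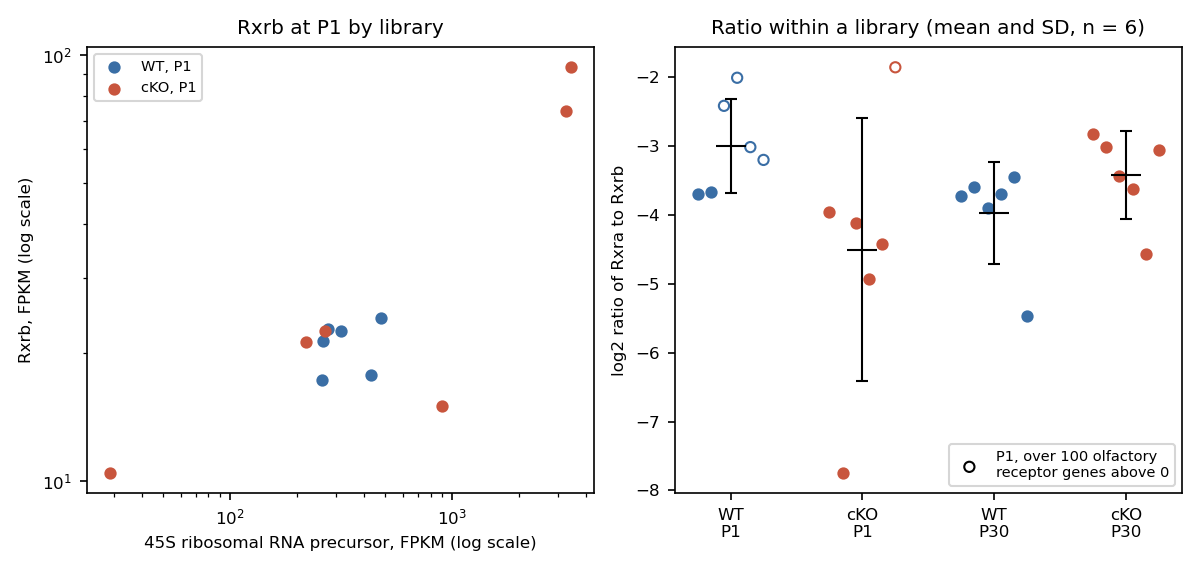
Left, FPKM of Rxrb against FPKM of the 45S ribosomal RNA precursor in the 12 P1 libraries, both on log axes, with WT in blue and Kdm6b-cKO in red; the pair of Kdm6b-cKO libraries farthest right holds 73.9 and 93.4 FPKM of Rxrb. Right, log2 ratio of Rxra to Rxrb in each library by group, with means and SD (n = 6) in black and open points for P1 libraries with the olfactory receptor signal; the only open Kdm6b-cKO point is at -1.85, the highest of its group.

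Rxrg (mm9 chromosome 1, 169528515 to 169569754, plus strand) encodes the third retinoid X receptor, known from striatal neurons and from oligodendrocytes in repair of myelin. At P1 it ranged from 13.5 to 50.6 FPKM in WT (median 21.1) and from 14.2 to 35.6 FPKM in Kdm6b-cKO (median 27.9). No Kdm6b-cKO library lay outside the WT range (log2 difference 0.14, SE 0.33, adjusted p = 0.855, limma). At P30 it was near the limit of detection, with 0 to 1.92 FPKM in WT (median 1.19) and 0 to 1.77 FPKM in Kdm6b-cKO (median 0.941). The P30 values stand on at most 23 reads per library and the genotypes overlapped (exact two-sided permutation p = 0.636). Rxrg was listed at 0 in 1 WT and 2 Kdm6b-cKO libraries at P30, where 3 reads would stand for 0.397 to 1.05 FPKM.

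The deiodinase genes were low in these nuclei. Dio2 (mm9 chromosome 12, 91962994 to 91976878, minus strand), which in brain is chiefly an astrocyte gene, held 0.515 to 4.38 FPKM in WT (median 2.15) and 0.336 to 4.99 FPKM in Kdm6b-cKO (median 1.59) at P1. Its log2 difference was -0.18 (SE 0.73, adjusted p = 0.925, limma). At P30 it held 0.746 to 1.98 FPKM in WT (median 1.24) and 0.537 to 3.64 FPKM in Kdm6b-cKO (median 0.999), with a log2 difference of -0.00 (SE 0.48, adjusted p = 0.999, limma) whose sign turned under several settings given below. Dio2 overlaps the long noncoding RNA gene Gm16738 on the opposite strand.

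Dio3 (mm9 chromosome 12, 111517278 to 111519307, plus strand) was the scarcest member. It was listed at 0 in 4 of the 6 Kdm6b-cKO libraries at P1 and in none of the WT libraries, which held 0.154 to 3.66 FPKM (median 0.925). The zeros carry little weight, since WT libraries held only 1 to 5 reads of Dio3 each, and 3 reads would stand for 0.63 to 5.22 FPKM in the 4 libraries at 0. Library 5 of Kdm6b-cKO, the shallowest, held 15.7 FPKM, the highest value. The log2 difference of -1.31 (SE 1.31) had an adjusted p of 0.656 in limma. At P30 Dio3 reached at most 1.69 FPKM among WT libraries and at most 0.595 FPKM among those of Kdm6b-cKO, with 2 libraries at 0 in each (exact two-sided permutation p = 0.602). A difference in Dio3 was not detectable at this depth.

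Klf9 (mm9 chromosome 19, 23215716 to 23241401, plus strand) encodes a zinc finger transcription factor that is a direct target of the hormone receptors in neurons. At P1 it held 3.40 to 9.63 FPKM in WT (median 5.48) and 2.04 to 7.20 FPKM in Kdm6b-cKO (median 4.07), with overlap (log2 difference -0.44, SE 0.39, adjusted p = 0.607, limma). At P30 the WT libraries lay close together at 14.8 to 18.9 FPKM (median 16.7), and Kdm6b-cKO libraries surrounded them at 11.8 to 23.0 FPKM (median 15.8). The P30 difference was -0.10 on the log2 scale (SE 0.16, adjusted p = 0.846, limma), resting on 99 to 682 reads per library. Among the 8 P30 libraries with at least 1000 FPKM of the 45S precursor, the log2 difference of Klf9 was -0.29 (exact two-sided permutation p = 0.0357, 56 splits, not adjusted), and among the other 4 it was 0.11.

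Hr (mm9 chromosome 14, 70952019 to 70973355, plus strand) encodes hairless, a corepressor that is induced by thyroid hormone in the postnatal rodent brain. The genotype difference of Hr at P30 had the smallest p of the 9 genes over both ages. At P30 the WT libraries held 6.34, 6.17, 7.33, 10.9, 6.34 and 9.83 FPKM, and the Kdm6b-cKO libraries 3.82, 3.39, 5.52, 6.65, 4.38 and 2.65 FPKM. Below the lowest WT library lay 5 of the 6 Kdm6b-cKO libraries, and the sixth, library 3, overlapped the lower WT libraries. The means were 7.81 ± 2.03 and 4.40 ± 1.47 FPKM (SD, n = 6), a log2 difference of -0.84 (SE 0.24). In limma the unadjusted p was 0.00427, rank 320 of the 13289 genes, and the adjusted p was 0.177, so Hr did not pass. By the exact permutation test p was 0.00866, and 0.178 after adjustment over all genes tested.

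The difference in Hr had the same sign within both sets of P30 libraries split by the 45S precursor. It was -0.53 on the log2 scale in the 8 libraries above 1000 FPKM and -0.94 in the other 4 (exact two-sided permutation p = 0.125 and 0.25, where 0.0179 and 0.25 are the smallest possible). The set of 4 holds 1 WT library and 3 of Kdm6b-cKO, so its value rests on a single WT library. With library weights estimated by limma the difference was -1.11 and the adjusted p 0.00323. The labels record no batch. With weights by depth, a term for this split by the 45S precursor and the replicate block, the adjusted p was 0.0700, 0.0671 and 0.278, and the range without any single library was 0.145 to 0.348 (limma). Hr rested on 197 to 298 reads per WT library and 45 to 146 per Kdm6b-cKO library. Summed oligodendrocyte markers (6 genes) also separated these groups, at 234 to 442 FPKM in WT and 120 to 168 FPKM in Kdm6b-cKO, and their part in the Hr values was not tested.

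At P1, Hr was scarce, with 0.687 to 2.00 FPKM in WT (median 1.34) and 0.201 to 4.90 FPKM in Kdm6b-cKO (median 1.81). The groups overlapped, with 3 Kdm6b-cKO libraries above all WT libraries and 1 below (log2 difference 0.28, SE 0.68, adjusted p = 0.862, limma). Those 3 were library 5 and the pair rich in the 45S precursor, and without that pair the difference was -0.07. The genotype effect on Hr differed between the ages by -1.12 with an adjusted p of 0.483 (limma), so the ages were not shown to differ.

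**Figure D3:**
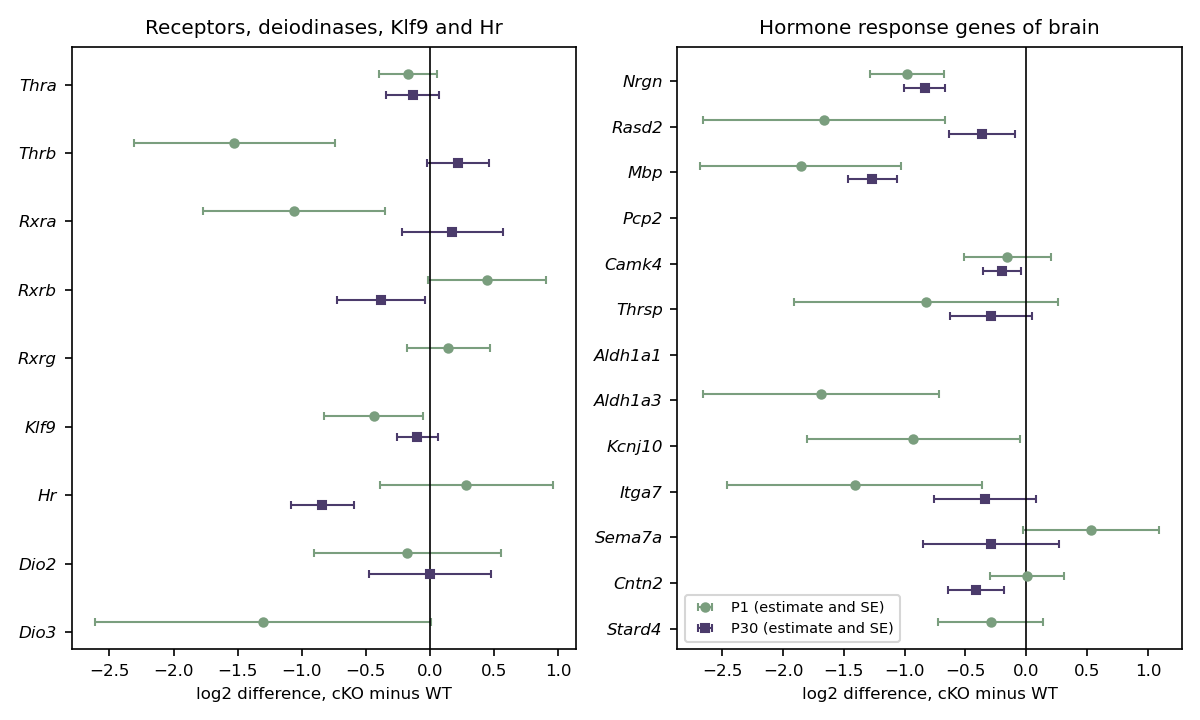
Log2 difference between Kdm6b-cKO and WT from limma, with its standard error as a horizontal bar, for the 9 genes (left) and for the hormone response genes fixed as a list (right), with green circles for P1 and purple squares for P30. Genes without a symbol at an age had a mean under 1 FPKM; Hr is at -0.84 and Mbp at -1.27 at P30.

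The balance between related members was compared as a log2 ratio of FPKM + 0.1 within each library. Scaling between libraries cancels in such a ratio except through the added 0.1, which matters where a member is near 0. In Kdm6b-cKO at P1, Dio3 was at 0 in 4 of the 6 libraries and Thrb in 1. At P30, Dio3 was at 0 in 2 libraries of each genotype. Ratios of these libraries are set in part by the added 0.1. None of the 6 comparisons passed (exact two-sided permutation tests, adjusted p over the 6 from 0.405 to 0.658). Thra exceeded Thrb by 6.84 ± 0.85 on the log2 scale in WT and by 8.19 ± 1.93 in Kdm6b-cKO at P1 (SD, n = 6, exact permutation p = 0.143), and by 5.42 ± 0.52 and 5.06 ± 0.70 at P30 (exact permutation p = 0.338). Dio2 relative to Dio3 was 1.02 ± 0.68 in WT and 2.15 ± 2.59 in Kdm6b-cKO at P1 and 1.74 ± 1.99 and 2.23 ± 1.74 at P30 (SD, n = 6, exact permutation p = 0.333 and 0.658).

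Rxra relative to Rxrb at P1 was -2.9996 ± 0.68 in WT and -4.51 ± 1.91 in Kdm6b-cKO (SD, n = 6, exact permutation p = 0.0779, adjusted p = 0.405). Kdm6b-cKO libraries 0 to 4 held log2 ratios of -3.95, -7.75, -4.12, -4.93 and -4.42, all below the lowest WT library at -3.70, while library 5 held -1.85, above all WT libraries. Without library 5 the difference was -2.04 (exact permutation p = 0.00216, the smallest possible here, and 0.0130 after adjustment over the 6). Libraries 0 and 1 are the pair rich in the 45S precursor and high in Rxrb, at 93.4 and 73.9 FPKM, and the -7.75 of library 1 stands on 1 read of Rxra. Without that pair the difference was -0.83 (exact permutation p = 0.238, adjusted p = 0.675). Library 5 was the shallowest and the only one of its group with the olfactory receptor signal. In WT, the 4 libraries with that signal also lay above the 2 without it, at -3.20 to -2.01 against -3.70 and -3.66. At P30 the ratio was -3.97 ± 0.74 in WT and -3.42 ± 0.63 in Kdm6b-cKO (SD, n = 6, exact permutation p = 0.210).

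The ages were set side by side by percentile rank among the 25135 genes of a library, since P1 and P30 were scaled in separate tables. This is a description without a test. In WT, 4 of the 9 members had all P30 libraries ranked above all P1 libraries and 1 had all below, against 21.6% and 20.2% of the 16895 genes that averaged 1 FPKM or more at either age. In Kdm6b-cKO these were 2 above and 1 below, against 12.3% and 10.6% of genes.

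Klf9 and Thrb ranked higher at P30 without overlap in both genotypes. Klf9 ranked at 57.6 to 71.7 (median 63.5) at P1 and 81.3 to 84.8 (median 83.1) at P30 in WT, and at 51.8 to 69.7 (median 59.3) and 78.5 to 88.0 (median 82.6) in Kdm6b-cKO. Thrb had medians of 48.8 and 61.7 in WT and 46.3 and 64.9 in Kdm6b-cKO. Hr had median ranks of 42.5 at P1 and 70.0 at P30 in WT without overlap, and of 49.1 and 63.3 in Kdm6b-cKO, where the ages overlapped. Whether this shift of Hr differed between genotypes was not tested on ranks, and the test of the genotype effect between ages given above did not pass.

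Rxrb ranked higher at P30 in WT, with medians of 84.1 and 94.1 and no overlap, and at medians of 83.5 and 90.8 with overlap in Kdm6b-cKO, where libraries 0 and 1 at P1 stood high. Most WT libraries at P30 and none at P1 had over 1000 FPKM of the 45S precursor. Within each age, the libraries above that level held the most Rxrb. Rxrg was the 1 member that ranked lower at P30. Its median rank was 84.5 at P1 and 49.4 at P30 in WT, and 86.1 and 47.7 in Kdm6b-cKO, without overlap in either. Thra stayed in the top ranks, with medians of 98.5 to 99.3 in the 4 groups. The ages overlapped in both genotypes for Rxra, Dio2 and Dio3, whose median ranks lay between 24.1 and 59.4.

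**Figure D4:**
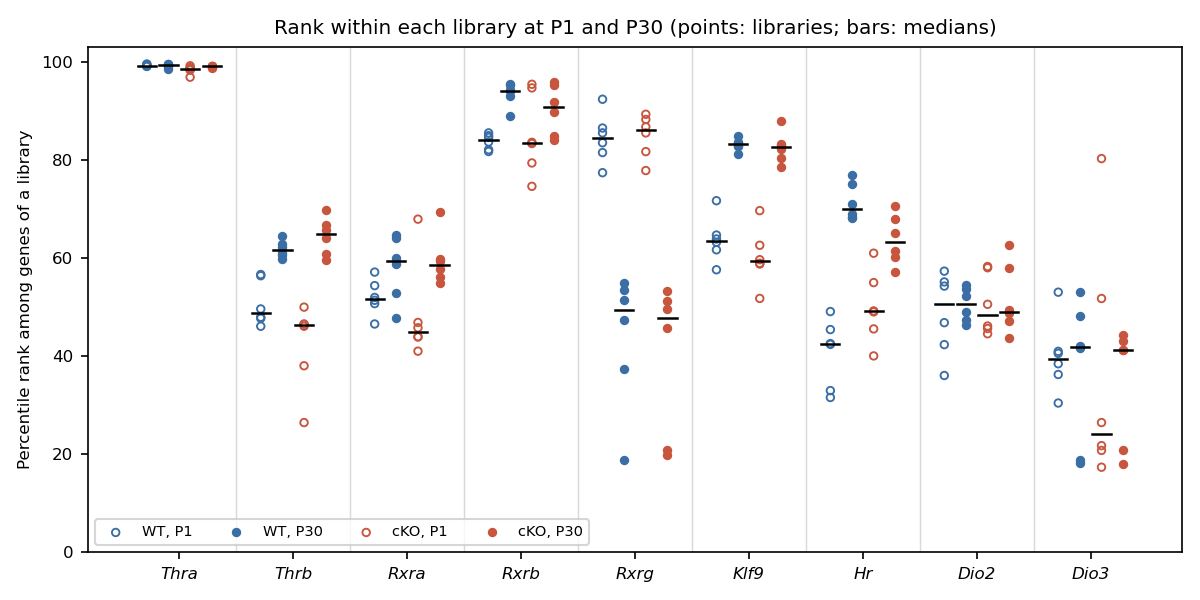
Percentile rank of each of the 9 genes among the genes of its library (0 to 100), with open points for P1, filled points for P30, blue for WT, red for Kdm6b-cKO and black bars for group medians (6 libraries each). In WT the median of Rxrg is 84.5 at P1 and 49.4 at P30, and that of Klf9 is 63.5 and 83.1.

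Other genes of the pathway were read from 5 fixed lists. Among brain genes known to respond to thyroid hormone (13 listed), 11 were tested at P1 and none was called, while 9 of the 11 had a negative log2 difference (median -0.93, against -0.25 over all genes tested, of which 63.2% were negative). In 3 of the 9, Itga7, Kcnj10 and Thrsp, the mean FPKM was higher in Kdm6b-cKO than in WT, and the log2 difference was negative with at least 1 Kdm6b-cKO library at 0. In all, 6 of the 9 had such a library. At P30, 8 were tested, 1 was called lower and none higher, and all 8 differences were negative (median -0.35, against -0.05 over all genes, of which 54.8% were negative). In 1 of the 8, Sema7a, the mean was 2.74 FPKM in WT and higher, at 2.92 FPKM, in Kdm6b-cKO. The called gene was Mbp, the myelin basic protein gene, which the study also examined in these samples and which marks oligodendrocytes. It held 84.0 to 176 FPKM in WT and 40.1 to 72.7 FPKM in Kdm6b-cKO at P30, without overlap (log2 difference -1.27, SE 0.20, adjusted p = 0.0204, limma). Leaving out WT library 2, 3, 4 or 5 or Kdm6b-cKO library 0 or 1 raised the adjusted p of Mbp to between 0.0513 and 0.0681 (limma), and the replicate block to 0.131.

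Nrgn, which encodes neurogranin, a calmodulin-binding protein of forebrain neurons, also had no overlap at P30. It held 323 to 471 FPKM in WT and 207 to 282 FPKM in Kdm6b-cKO, a log2 difference of -0.83 (SE 0.17). This is under the 2-fold that a call needs, and the adjusted p of 0.0536 in limma also missed the threshold. The adjusted p ran from 0.00253 with library weights to 0.235 with the replicate block. At P1, Nrgn had a log2 difference of -0.98 (SE 0.30, adjusted p = 0.196, limma). Over all P1 libraries the genotypes overlapped for Nrgn, with 179 to 440 FPKM in WT and 70.2 to 197 FPKM in Kdm6b-cKO. Among the 7 P1 libraries without the olfactory signal, Nrgn held 326 and 440 FPKM in the 2 WT libraries and 70.2 to 197 FPKM in Kdm6b-cKO. With the signal it held only 179 to 208 FPKM in the 4 WT libraries and 91.5 FPKM in the 1 Kdm6b-cKO library. Nrgn in WT thus differed with this signal, and its part in the genotype difference was not tested. Mbp at P1 had a difference of -1.85 (SE 0.83, adjusted p = 0.323, limma). Summed glutamatergic markers overlapped between genotypes at P30, at 194 to 303 FPKM in WT and 129 to 357 FPKM in Kdm6b-cKO.

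**Figure D5:**
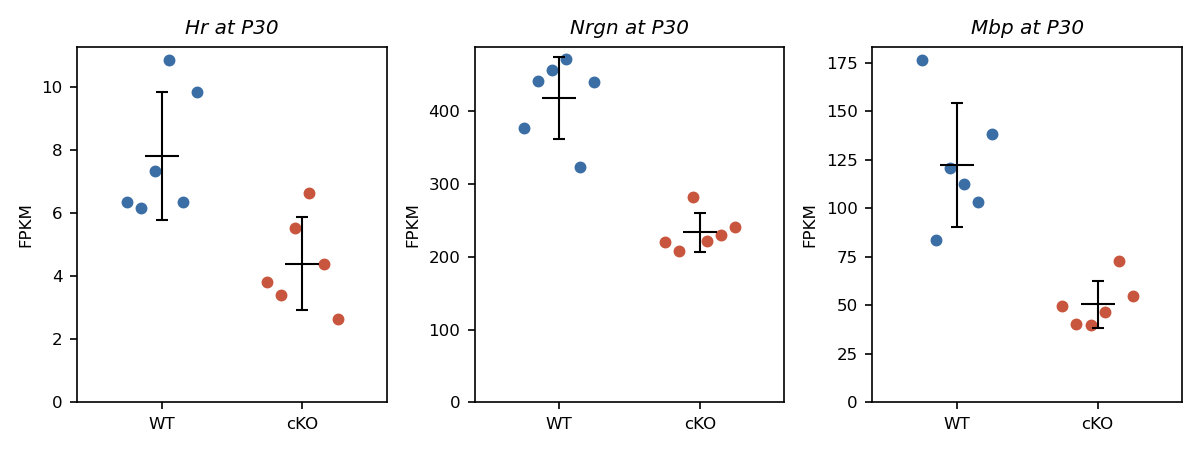
FPKM of Hr, Nrgn and Mbp in the 6 WT (blue) and 6 Kdm6b-cKO (red) libraries at P30, with the mean and SD in black and vertical axes from 0. The groups do not overlap for Nrgn (323 to 471 against 207 to 282 FPKM) and Mbp, and overlap in 1 Kdm6b-cKO library for Hr.

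No gene of the other 4 lists was called at either age. Of 8 transport and supply genes, 7 were tested at each age. Slc7a8, an amino acid transporter that also carries thyroid hormone, and Ttr, the thyroxine carrier of choroid plexus, came nearest at P1, with log2 differences of -1.17 (adjusted p = 0.259) and 1.201 (adjusted p = 0.286) in limma. At P30 Slc7a5, another amino acid transporter, had a log2 difference of -0.49 (adjusted p = 0.378, limma).

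All 12 coregulator genes were tested at both ages, with medians of -0.13 at P1 and 0.23 at P30. At P1 the coactivator gene Ncoa2 had a log2 difference of -0.61 (adjusted p = 0.434, limma). The nearest to the threshold at P30 were the corepressor gene Ncor1 (0.34, adjusted p = 0.371) and Ncoa2 (0.37, adjusted p = 0.417, limma).

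Among 13 genes of retinoid supply and retinoic acid reception, 12 were tested at P1 and 9 at P30. Crabp2, which encodes a cytoplasmic retinoic acid-binding protein, held 4.45 to 9.34 FPKM in WT and 10.5 to 38.4 FPKM in Kdm6b-cKO at P1, without overlap (log2 difference 1.47, SE 0.34, adjusted p = 0.178, limma), and had a difference of 0.91 (adjusted p = 0.419) at P30. The receptor gene Rara had -1.77 (adjusted p = 0.378) at P1 and Rarg -0.56 (adjusted p = 0.322, limma) at P30. Rara at P1 spanned 0 to 8.51 FPKM in Kdm6b-cKO, on both sides of the 2.22 to 5.57 FPKM in WT. All 5 genes of this list with a negative difference at P1 had a Kdm6b-cKO library at 0.

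Of 9 genes for other partners of the retinoid X receptors, 7 were tested at P1, all with a negative log2 difference (median -1.31, against -0.25 over all genes tested), and 6 at P30, of which 5 were negative (median -0.35, against -0.05). Among all genes 63.2% were negative at P1 and 54.8% at P30. In 3 of the 7 at P1, Vdr, Nr1h3 and Ppard, the mean FPKM was higher in Kdm6b-cKO, and Vdr and Nr1h3 had Kdm6b-cKO libraries at 0, so the shared sign is not a shared fall in FPKM. Nr4a2, which encodes an orphan receptor that pairs with retinoid X receptors, held 23.2 to 37.4 FPKM in WT and 4.66 to 20.3 FPKM in Kdm6b-cKO at P1, without overlap (log2 difference -1.32, SE 0.32, adjusted p = 0.178, limma). Its relative Nr4a1 had -1.37 (adjusted p = 0.231) at P1. At P30 the nearest were Nr1h2, a receptor for oxysterols, at -0.40 (adjusted p = 0.258), and Pparg, a receptor for fatty acids, at -0.97 (adjusted p = 0.351, limma).

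The genes whose variation among libraries was most like that of Klf9 were Exoc5, Ireb2 and Map4k3. Likeness was the root mean squared difference of log2 values, centred within each age, over the 24 libraries, at 0.264, 0.275 and 0.286, against a median of 0.764 over 12643 genes. For Thrb they were Lrrc55, Kcnj2 and Tbck, at 0.422, 0.450 and 0.455 against a median of 1.199. The points share library depth and scaling, so these values are a description.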

How the data were processed

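RNA of sorted SUN1-GFP+ cortical nuclei was sequenced on an AVITI or NovaSeq instrument. Per the labels, HISAT2 with the build mm9 and Cuffdiff gave the deposited FPKM values, which the authors put in 1 table per age. Their 75th percentiles are alike within a table while their sums differ, so they were also scaled between libraries, and the steps of 1 read that remain are the only trace of depth. Versions, annotation and strand setting are not given in the sources used here. The authors' comparison tables, which hold group values, fold changes, statistics, p and q values, were not used. Columns numbered 0 to 5 were assigned to groups by name and not to single samples.

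The 9 genes, the 5 pathway lists and the marker lists were chosen with earlier results of these data known. Values were tested as log2(FPKM + 0.1) with limma 3.58.1 in R 4.3.3 (intensity trend, two-sided, Benjamini-Hochberg adjustment over all genes that averaged 1 FPKM or more), within each age and, with an intercept per age, between ages. Calls were made at an adjusted p under 0.05 and over 2-fold. Single genes and ratios were compared by exact two-sided permutation tests over the 924 splits of 12 libraries. Fold changes on this scale understate changes of low genes. From each list every called gene, or otherwise the 2 genes with the smallest unadjusted limma p at an age, were named. Some genes that this rule covers are not reported here. Reads behind a value were recovered where low FPKM fell within 0.05 of whole reads on average. Scripts were tested on simulated data. Figures used Python 3.11.15 with matplotlib 3.10.9. Gene positions are from GENCODE on NCBIM37, which is mm9. Intervals and floors cover counting error only.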

Additional observations from a re-analysis of the deposited data

Results flagged for a closer look

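In 4 of the 36 groups of 6 libraries formed by the 9 genes, 1 library stood apart from the other 5 by a gap above the 95% critical value of Dixon's test on FPKM, where chance gives about 1 in 20. Thra in WT at P1 was 195.9 FPKM in library 3, against 261.7 FPKM in the next lowest. Rxra in Kdm6b-cKO at P30 was 6.13 FPKM in library 2, against 3.29 FPKM in the next highest. Rxrg in WT at P1 was 50.6 FPKM in library 5, against 26.3 FPKM in the next highest. Dio3 in Kdm6b-cKO at P1 was 15.7 FPKM in library 5, against 1.498 FPKM in the next highest. This last library was the shallowest of the 24, at 191000 effective reads, and its Dio3 value stands on 5 reads.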

How the results depend on the processing

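In limma, no member passed the adjusted threshold under any alternative, except Hr at P30 (log2 difference -1.11, adjusted p = 0.00323) and Rxrb at P30 (-0.92, adjusted p = 0.0171) with library weights by limma. At P30 the numbers of genes called lower and higher were 30 and 7. They became 329 and 201 with these weights, 48 and 14 with weights by depth, 365 and 185 with a batch term, and 0 and 0 with the replicate block. No batch is recorded in the labels: the batch term is the split of libraries described above, read from the values, by the olfactory signal at P1 and by 1000 FPKM of the 45S precursor at P30. The column numbers pair no samples: same-numbered libraries correlated at -0.18 to 0.23 at P1 and at -0.30 to 0.33 at P30, and 1 of 12 WT libraries correlated best with its own number. A mean of at least 5 FPKM left 18 lower and quantile normalization gave 15 higher. Without single libraries they ranged from 1 to 33 lower and from 1 to 10 higher, and 1 gene was lower without WT library 2, 3 or 5. At P1, where none was called, weights by depth gave 209 lower and 195 higher, no trend gave 1 lower, and leaving out single libraries gave up to 27 lower and 24 higher, both without Kdm6b-cKO library 4. The effect between ages, with 1 gene past the threshold, had 10 at a pseudocount of 1, 3 at a mean of at least 5 FPKM, 39 after quantile normalization, 0 with no trend, 0 with the replicate block, 25 without the 2 P1 Kdm6b-cKO libraries rich in the 45S precursor, and 0 to 92 without single libraries, the most without Kdm6b-cKO library 4 at P1. The cause was not tested.

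These members' log2 differences changed sign without passing the threshold. Without the 2 libraries rich in the 45S precursor, a choice made after seeing the data, P1 gave -0.33 for Rxrb, -0.0682 for Hr and -0.12 for the ratio of Dio2 to Dio3. The batch term gave -0.0253 for Rxrg, 0.75 for Dio2 and 0.70 for Dio3 at P1, and 0.0363 for Thra, 0.0140 for Rxrb and 0.15 for Dio2 at P30. Library weights by limma gave -0.15 for Hr at P1 and 0.13 for Klf9 at P30, and weights by depth -0.0508 for Rxrb and -0.49 for Hr at P1 and 0.00983 for Klf9 at P30. Quantile normalization gave 0.34 for Dio2 and 0.42 for Dio3 at P1, 0.14 for Dio2 at P30, and -0.61 for the effect on Dio2 between ages. At P30, Dio2 was 0.00631 after median-of-ratios scaling and 0.0466 at a pseudocount of 1. Among P1 libraries without the olfactory signal Dio2 was 0.67. Among those with it, with 1 Kdm6b-cKO library, the values were 0.32 for Thrb, 0.42 for Rxra, -0.38 for Rxrb, -0.72 for Rxrg, 0.0831 for Klf9, 0.87 for Dio2 and 3.30 for Dio3, and -0.63 for Thra to Thrb, 0.80 for Rxra to Rxrb and -2.42 for Dio2 to Dio3. Among P30 libraries low in the 45S precursor they were 0.40 for Thra, 0.24 for Rxrg, 0.11 for Klf9 and -1.09 for Dio2 to Dio3, and among those high in it -0.12 for Thrb, 0.14 for Rxrb, 0.69 for Dio2 and 0.0122 for Thra to Thrb. Without single libraries, P1 values ranged from -0.0106 to 0.37 for Rxrg, -0.0471 to 0.76 for Hr, -0.50 to 0.20 for Dio2 and -2.04 to -0.86 for Rxra to Rxrb, which passed the adjusted threshold only without Kdm6b-cKO library 5. P30 values ranged from -0.12 to 0.33 for Rxra, -0.30 to 0.22 for Dio2 and -0.0774 to 0.96 for Dio2 to Dio3. The effect between ages ranged from -0.11 to 0.15 for Thra and -0.21 to 0.50 for Dio2. The number of members whose Kdm6b-cKO ranks did not overlap between ages ranged from 3 to 5 without single libraries. With ranks taken among genes that averaged at least 1 FPKM at both ages, it was 2 in Kdm6b-cKO and 4 in WT.

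Depth limits the scarce members most: Dio3 stood on at most 7 reads per library at P1, and Thrb, Rxra and Hr on at most 49.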
